A study of Mus musculus with 2 samples.

Results

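The control-enriched islands are stretches of clustered reads in which a control library outweighed the peak library once the control was counted at a factor of 2. They were selected on the deposited read counts, as nuclear islands whose peak-library count was below 200 and below 2 times the control-library count. There were 1980 such islands among the 19531 in the deposited table, which were 10.1% of the 19513 nuclear islands under that ceiling of 200. The remaining 17533 of those islands, called the other islands here, serve as the comparison. The series profiled lymphoid tissue inducer (LTi) cells, the innate lymphoid cells that help to build lymph nodes and Peyer's patches, by chromatin immunocleavage sequencing (ChIC-seq) with an antibody against TCF-1. The Tcf7fl/fl-VavCre library came from cells of the small intestine lamina propria, in which Cre driven by the Vav promoter deletes Tcf7 in haematopoietic cells. The Tcf7+/+ library came from cells of Peyer's patches. Both were made from C57BL/6 mice and from 500 sorted cells each that were Lin-, CD127+, CCR6+, KLRG1-, NK1.1- and NKp46-.

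Since the genotypes came from different tissues, with 1 library apiece, nothing below has a replicate check. The 2 read columns of the table name no sample. "Control" is the peak caller's word for its background library, while the Tcf7+/+ sample carries the abbreviation Ctrl in its title. Values are therefore given as peak library and control library, and no direction between the genotypes was drawn.

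In ChIC-seq the antibody carries micrococcal nuclease to chromatin, the nuclease cuts the DNA around it, and the released fragments are sequenced. TCF-1, encoded by Tcf7, is an HMG-box transcription factor of the Wnt pathway that binds DNA in lymphoid progenitors, T cells and innate lymphoid cells. An island is a run of windows that the caller joined because reads clustered there. Among the genes near the control-enriched islands, MHC class II molecules present peptides to CD4 T cells, and GIMAP proteins are GTPases of lymphocytes.

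Promoters are printed first because the control-enriched islands lay over RefSeq promoter windows more often than the other islands did. Each window runs from 250 bases before to 50 bases after a transcription start and is given in the gene's own direction, from RefSeq on build GRCm38.p6. The first 4 belong to the 3 widest control-enriched islands. H2-Aa, H2-Eb1 and Polr2e were added after their values were seen, the first pair as MHC class II genes and Polr2e as a gene of an island with more control-library than peak-library reads. Capitals mark each CpG dinucleotide and, in H2-Eb1, the letters CTTTGAT, which are the reverse complement of the TCF core ATCAAAG.

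Junb promoter, chr8:84978699-84978998, minus strand: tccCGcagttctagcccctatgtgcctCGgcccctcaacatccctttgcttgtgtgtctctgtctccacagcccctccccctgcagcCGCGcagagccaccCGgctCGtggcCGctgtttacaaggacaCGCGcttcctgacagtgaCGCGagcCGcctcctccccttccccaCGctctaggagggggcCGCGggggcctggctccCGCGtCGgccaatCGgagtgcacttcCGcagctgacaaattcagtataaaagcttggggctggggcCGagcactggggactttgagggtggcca
Brd2 promoter, chr17:34119851-34120150, minus strand: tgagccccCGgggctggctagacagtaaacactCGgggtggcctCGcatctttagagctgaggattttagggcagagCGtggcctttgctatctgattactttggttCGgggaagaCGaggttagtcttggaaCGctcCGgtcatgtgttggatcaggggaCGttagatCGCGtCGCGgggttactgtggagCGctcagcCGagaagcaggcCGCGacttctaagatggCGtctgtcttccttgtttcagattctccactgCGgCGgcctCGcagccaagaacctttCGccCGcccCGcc
H2-DMa promoter, chr17:34122582-34122881, plus strand: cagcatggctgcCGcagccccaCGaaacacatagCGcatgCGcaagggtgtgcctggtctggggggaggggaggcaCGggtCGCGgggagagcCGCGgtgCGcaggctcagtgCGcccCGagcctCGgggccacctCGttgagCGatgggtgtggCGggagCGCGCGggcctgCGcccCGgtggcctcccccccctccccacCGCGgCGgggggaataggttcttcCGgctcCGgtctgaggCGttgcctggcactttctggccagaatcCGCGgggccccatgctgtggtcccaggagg
Mcl1 promoter, chr3:95658471-95658770, plus strand: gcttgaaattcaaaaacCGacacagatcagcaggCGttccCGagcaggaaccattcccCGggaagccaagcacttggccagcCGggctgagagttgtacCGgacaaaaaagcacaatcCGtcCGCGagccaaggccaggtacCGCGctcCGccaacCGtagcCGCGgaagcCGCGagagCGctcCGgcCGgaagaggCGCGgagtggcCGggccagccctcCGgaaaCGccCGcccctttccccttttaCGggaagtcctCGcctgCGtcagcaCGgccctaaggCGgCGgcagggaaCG
H2-Aa promoter, chr17:34287774-34288073, minus strand: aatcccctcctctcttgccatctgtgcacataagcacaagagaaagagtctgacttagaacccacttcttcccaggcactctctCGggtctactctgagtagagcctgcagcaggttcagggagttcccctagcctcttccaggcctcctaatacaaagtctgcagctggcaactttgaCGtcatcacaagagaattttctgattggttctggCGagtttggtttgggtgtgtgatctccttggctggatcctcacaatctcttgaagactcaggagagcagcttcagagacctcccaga
H2-Eb1 promoter, chr17:34305617-34305916, plus strand: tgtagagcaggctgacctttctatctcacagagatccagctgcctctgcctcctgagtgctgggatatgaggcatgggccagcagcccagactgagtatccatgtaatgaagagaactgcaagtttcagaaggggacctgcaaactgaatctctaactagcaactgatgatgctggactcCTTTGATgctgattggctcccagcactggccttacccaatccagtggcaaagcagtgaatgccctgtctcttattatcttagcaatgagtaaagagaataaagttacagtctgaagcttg
Polr2e promoter, chr10:80039610-80039909, minus strand: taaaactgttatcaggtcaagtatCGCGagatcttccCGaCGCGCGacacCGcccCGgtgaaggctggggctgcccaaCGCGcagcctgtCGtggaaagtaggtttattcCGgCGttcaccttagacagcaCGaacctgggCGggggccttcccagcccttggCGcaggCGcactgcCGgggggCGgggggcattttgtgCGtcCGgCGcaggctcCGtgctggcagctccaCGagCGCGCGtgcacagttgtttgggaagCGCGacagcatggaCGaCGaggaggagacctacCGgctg

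The promoters of Junb, Brd2, H2-DMa, Mcl1 and Polr2e held 21, 24, 29, 33 and 32 CpGs. The H2-Aa window held 3 CpGs and the H2-Eb1 window held 0. Of the 7 windows, H2-Eb1 alone contained the TCF core on either strand.

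A pair of microRNAs lay within 10 kb of a control-enriched island on chromosome 3 and shared a seed. In the mature sequences below, from the same RefSeq build, capitals mark bases 2 to 8.

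mmu-miR-15b-5p, chr3:69009775-69009796, plus strand: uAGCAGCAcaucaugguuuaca
mmu-miR-16-5p, chr3:69009918-69009939, plus strand: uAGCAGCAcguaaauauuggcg

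Both carry the seed AGCAGCA, the part of a microRNA that pairs with its targets. Their genes, Mir15b and Mir16-2, began 1972 and 2102 bp beyond the end of the island chr3:69002601-69007800. That island was 5200 bp wide and held 60 peak-library reads against 35 control-library reads.

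The read counts chose these islands, so they are described and not tested. A control-enriched island held a median of 17 peak-library reads (range 7 to 197) and 11 control-library reads (range 5 to 125). The other islands held medians of 16 peak-library reads and 4 control-library reads. The peak-library medians thus differed by 1 read, and the control-library medians by 7. Together the control-enriched islands carried 11.2% of the peak-library reads and 22.5% of the control-library reads of all 19513 islands.

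The fold used here is the peak-library count divided by 2 times the control-library count. Summed over the control-enriched islands, 43234 peak-library reads and 26878 control-library reads gave a pooled fold of 0.804 (exact 95% interval 0.792 to 0.817). The other islands pooled to 1.86 (1.84 to 1.87). All intervals describe counting error alone. They treat every counted read as separate and make no allowance for any PCR copies of a molecule. The authors' deposited table gives a fold below 1, a p-value of 1 and an FDR of 1 for all 1980 control-enriched islands, and its FDR among the other islands reached 0.514.

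Many control-enriched islands lay close to the threshold. The count missed it by 1 read in 367 of them and by at most 2 reads in 721, and 524 other islands sat exactly on it. A fold of 0.75 or more was found in 1467 control-enriched islands and a fold below 0.75 in 513. In absolute terms the peak library had fewer reads than the control library in 26 islands, which were 0.133% of all 19513. The word "enriched" therefore rests on the factor of 2 for nearly all of them.

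Islands just inside and just outside the threshold were named by most total reads, so their similar sizes follow from that choice. Just inside were an island at Sin3a, a corepressor scaffold, with 69 peak-library against 35 control-library reads, and one at the long noncoding RNA Neat1 with 63 against 32. The third was between H2-Aa and H2-Eb1, with 59 against 30. Just outside were islands at Scaf1 and Rras with 64 against 32 reads, at Hes7 with 62 against 31, and at Nf1 and Evi2b with 62 against 31. At the other limit, the control-enriched island with the most peak-library reads had 197, and the next nuclear island above the ceiling had 225 against 123.

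**Figure D1:**
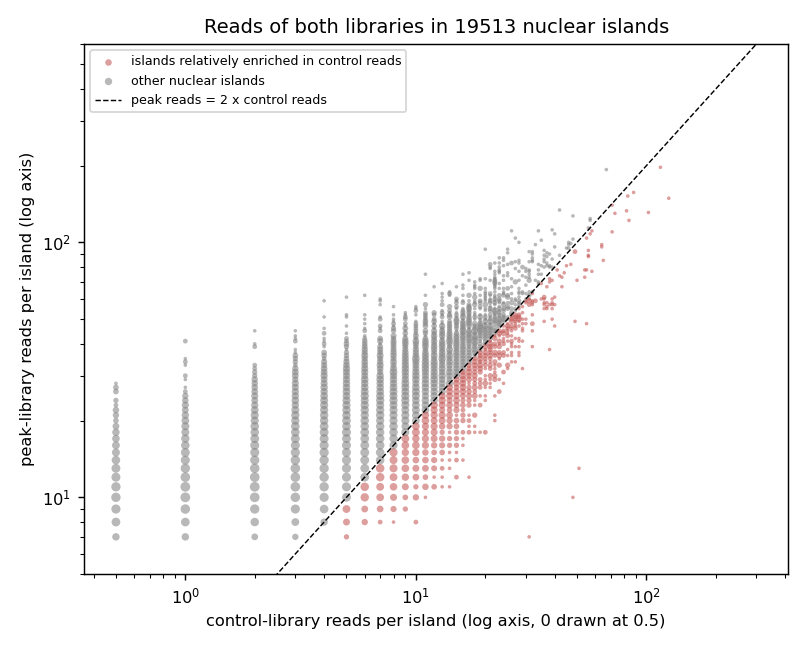
Control-library reads per island (x axis, log scale, 0 drawn at 0.5) against peak-library reads per island (y axis, log scale) for 19513 nuclear islands, with larger points where more islands share a pair of counts and the dashed line at peak reads equal to 2 times control reads. The 1980 control-enriched islands (red) mostly lie near the line, and 3 of them lie far to the right of it, at 10 against 48, 7 against 31 and 13 against 51 reads.

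In 24 control-enriched islands, 0.123% of all islands, the whole 95% interval of the fold lay below 1. They held 1037 peak-library and 1009 control-library reads, a pooled fold of 0.514 (0.471 to 0.561). Of the 24, 16 overlapped a protein-coding gene, against 79.3% of all control-enriched islands and 74.3% of the others. At most 400 bp wide were 8 of the 24, against 3.64% of all control-enriched islands and 3.63% of the others. The 3 lowest folds stood apart from the rest and all lay inside coding genes, where most islands of both groups lie.

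The lowest was the 200 bp island chr6:131377601-131377800, inside Ybx3, which encodes a cold shock domain protein that binds DNA and RNA. It held 10 peak-library against 48 control-library reads, a fold of 0.104 (0.0470 to 0.209). The 200 bp island chr11:97932401-97932600, inside Plxdc1, a plexin domain-containing membrane protein gene, held 7 against 31 reads, a fold of 0.113 (0.0420 to 0.261). The 800 bp island chr5:114173201-114174000, inside Acacb, an acetyl-CoA carboxylase gene of fatty acid metabolism, held 13 against 51 reads, a fold of 0.127 (0.0636 to 0.238). None of these 3 overlapped a promoter window. Exons and introns were not told apart, because the gene table used gives gene starts and ends only.

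The next folds among islands with at least 20 control-library reads were between 0.436 and 0.50. An island inside Kctd16, an auxiliary subunit of GABA-B receptors, held 48 peak-library against 55 control-library reads over 400 bp. An island inside Jarid2, a cofactor of Polycomb repressive complex PRC2, held 38 against 38 reads over 400 bp. An island 14938 bp from Nfe2l2, the gene of the oxidative stress factor NRF2, held 18 against 20 reads. The coordinates of the others in this group were chr9:3258601-3259000 with 18 against 20 reads, more than 10 kb from any RefSeq gene, and chr6:3200801-3201800 with 49 against 49, near noncoding genes only.

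Promoters were among these islands too. The island at the start of Septin7, a cytoskeletal GTPase gene, held 20 peak-library against 22 control-library reads. The island at the start of Polr2e, a subunit shared by the nuclear RNA polymerases, held 21 against 22 reads, a fold of 0.477 (0.25 to 0.910). Of the 24 islands, 5 of the 23 outside chromosome 18 overlapped a promoter window. The share there was 50.7% for all control-enriched islands and 34.1% for the others. Besides Septin7 and Polr2e, the 5 were at Rraga, a GTPase of mTORC1 signalling (47 against 40 reads), the linker histone gene H1f3 (32 against 29) and Rbm39, a splicing coactivator gene (73 against 54).

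The control-library counts were highest in densely covered islands. The highest count was in chr11:109011601-109012200, a 600 bp island within the noncoding gene Gm36876, with 149 peak-library against 125 control-library reads. Next were chr18:3004201-3006800, with 197 against 115 and no gene within 10 kb, and an island in Lars2, the mitochondrial leucyl-tRNA synthetase gene, with 131 against 102. An island in Cdk8, the Mediator kinase gene, held 157 against 88 reads over 600 bp, and an island in the noncoding 2700054A10Rik held 122 against 84.

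A density of at least 50 reads of both libraries per kb, a limit chosen after the values were seen, was reached by 64 of the 1980 control-enriched islands (3.23%, 2.50 to 4.11) and by 82 of the 17533 others (0.468%, 0.372 to 0.580). The dense islands of both groups had a median width of 400 bp. The pooled fold was 0.690 in the dense control-enriched islands and 1.38 in the dense others. Promoter windows were overlapped by 11 of 61 of the dense control-enriched islands outside chromosome 18, against 39 of 79 of the dense others. Since read density in an island depends on the counts that chose it, these values are a description. Whether repeated sequence in the reference takes part in them was not tested.

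Genes were close to nearly all control-enriched islands. A RefSeq gene lay within 10 kb of 1895 of the 1980 (95.7%, 94.7 to 96.6), against 93.6% (93.2 to 94.0) of the other islands. A protein-coding gene was that close to 89.7% of the control-enriched islands, against 85.6% of the others. At least 2 protein-coding genes lay within 10 kb of 39.7% (37.5 to 41.9), against 28.9% (28.2 to 29.6). No gene was found within 50 kb of 9 control-enriched islands (0.455%) and of 146 others (0.833%).

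The groups stood farther apart at promoters. A promoter window was overlapped by 978 of the 1928 control-enriched islands outside chromosome 18 (50.7%, 48.5 to 53.0), against 5812 of 17024 others (34.1%, 33.4 to 34.9). Chromosome 18 was left out because its promoters were not used here. A start or end of a protein-coding gene lay within 1 kb of 55.9% of the control-enriched islands, against 40.5% of the others. In the 24 islands with the whole interval below 1 that share was 29.2% (12.6 to 51.1). In the 26 with fewer peak-library than control-library reads it was 26.9% (11.6 to 47.8). Both values lie below the 40.5%, so the order was the other way there, but both intervals include it. The rest of a coding gene held 31.2% of the control-enriched islands and 42.3% of the others. Places farther than 10 kb from any gene held 4.20% of the control-enriched islands and 6.33% of the others. These shares were not tested against each other, because islands of 1 pair of libraries are not replicates.

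**Figure D2:**
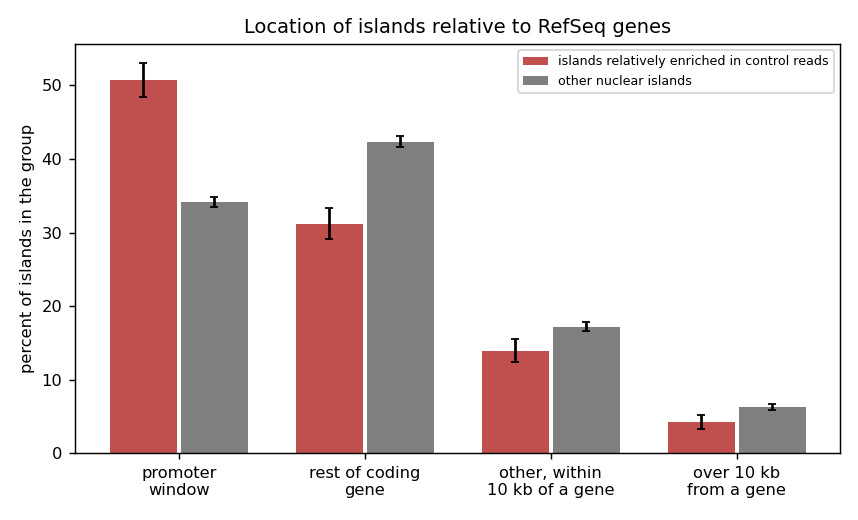
Percent of control-enriched islands (red) and of other islands (grey) in 4 classes of location, chromosome 18 left out; error bars are exact 95% intervals for counting error. Promoter windows hold 50.7% of the control-enriched islands against 34.1% of the others, and the 3 remaining classes hold smaller shares of the control-enriched islands.

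The gap shrank when islands of equal read totals were compared. Other islands weighted to the same peak plus control reads overlapped promoter windows in 46.0% of cases, against 50.7% for the control-enriched islands. Weighted to the same peak-library reads the value was 36.5%, and to the same width 35.3%. The total includes the control reads on which the islands were chosen.

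Read the other way, 14.4% (13.6 to 15.3) of all islands over promoter windows were control-enriched, against 7.81% (7.34 to 8.30) of islands elsewhere. The pooled fold over all islands was 1.42 at promoter windows and 1.82 elsewhere. Split by total reads, the control-enriched share was 2.06% at promoters against 0.935% elsewhere for totals of 7 to 14 reads, and 13.7% against 9.42% for 15 to 29 reads. It was 16.4% against 14.5% for 30 to 59 reads. From 60 reads on the order turned, with 22.0% (18.7 to 25.5) at promoters against 23.2% (18.4 to 28.6) elsewhere, intervals that overlap.

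Widths ran from 200 to 8400 bp in the control-enriched islands, with a median of 1600 bp (quartiles 1200 and 2200 bp). The other islands had a median of 1400 bp (quartiles 1000 and 2000 bp). The order of the medians depended on the read counts. Other islands of equal peak-library reads had a median of 1600 bp, the same as the control-enriched islands, and those of equal total reads had 1800 bp, which was wider. Narrow islands of at most 400 bp made up 3.64% of the control-enriched islands and 3.63% of the others.

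The 3 widest control-enriched islands each overlapped at least 1 promoter window. The widest, chr17:34115601-34124000, spanned the promoter windows of Brd2, a reader of acetylated histones, and H2-DMa, a chain of the class II peptide exchange factor, and held 98 peak-library against 64 control-library reads. The second, chr3:95658601-95666600, lay at Mcl1, which encodes a survival protein of the BCL2 family, with 74 against 42 reads. The third, chr8:84973801-84981600, covered Junb, an AP-1 transcription factor gene, and reached Prdx2, a peroxiredoxin gene, with 140 against 71 reads. Their promoters are the first 4 printed above. The folds were 0.766, 0.881 and 0.986, so the Junb island lay 2 reads inside the threshold.

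The base composition of promoters was close in both groups. The 1389 promoter windows overlapped by a control-enriched island had a median GC content of 61.0% and a median of 22 CpGs. The 7968 windows overlapped only by other islands had 61.7% and 22 CpGs, and the 23494 windows with no island had 49.7% and 4. The GC box (GGGCGG, both strands) was present in 67.0% of the windows under control-enriched islands, in 66.7% of those under other islands only and in 35.7% of all 32851 windows. The ETS core (CCGGAAG, both strands) was present in 21.6% of windows under control-enriched islands, in 20.7% under other islands only and in 8.86% of all windows. Motif matches are letters in a window of 300 bases and show no binding.

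The TCF core (ATCAAAG, both strands) was present in 3.24% (2.37 to 4.31) of the windows under control-enriched islands. It was in 2.57% (2.24 to 2.94) of the windows under other islands only and in 3.73% of all windows. The intervals of the first pair overlap. Other searches gave the TATA box (TATAAA, both strands) in 6.70% of windows under control-enriched islands and in 6.17% under other islands only, and the CCAAT box (CCAAT, both strands) in 42.4% of windows under control-enriched islands and in 40.4% under other islands only. Junb and H2-Aa, printed above, are among the windows with a CCAAT box.

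The MHC class II genes on chromosome 17 had a high share of control-enriched islands. Of the 27 islands within 10 kb of the 9 class II genes with an island, 15 were control-enriched (55.6%, 35.3 to 74.5), against 10.3% of islands near any RefSeq gene. The 27 islands pooled to 694 peak-library and 369 control-library reads, a fold of 0.940 (0.828 to 1.07). Islands near class I and other H2 genes were control-enriched in 10 of 37 cases (27.0%, 13.8 to 44.1), with a pooled fold of 1.29 (1.13 to 1.48).

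Both islands near H2-Ab1, the class II beta chain gene, were control-enriched, with 55 against 36 and 18 against 17 peak-library and control-library reads. H2-Aa, the partner alpha chain gene, had 2 control-enriched islands of 6, and the one over its start held 25 against 18 reads. Near H2-Eb1, another beta chain gene, 3 of 4 islands were control-enriched, and the one over its start held 37 against 24. H2-Eb2 had 4 of 5, with 82 against 54 reads in the 4. Genes of the peptide-loading proteins were divided. H2-DMa had 3 of 4 control-enriched islands and H2-Oa had 2 of 2, while H2-DMb1, H2-DMb2 and H2-Ob had 1 each, of 3, 3 and 4. Neighbouring genes share islands, so these counts overlap.

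**Figure D3:**
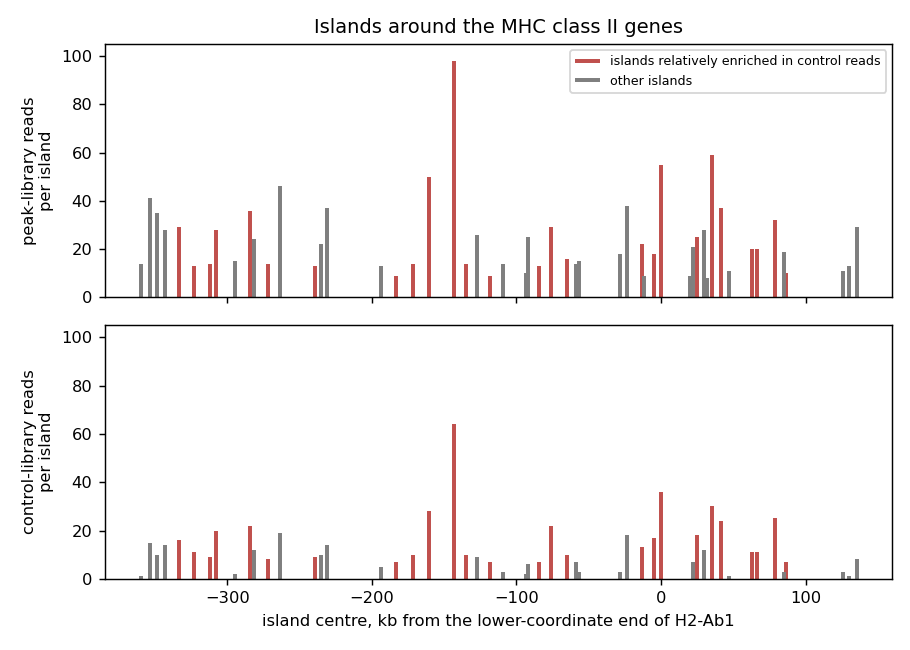
Reads per island of the peak library (upper panel) and the control library (lower panel) against the distance of the island centre from the lower-coordinate end of H2-Ab1 in kb, for 54 islands. The 26 control-enriched islands (red) lie between -333 and 86.5 kb and include the tallest island of both panels, the Brd2 and H2-DMa island with 98 against 64 reads; other islands are grey.

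In a stretch set after the values were seen, chr17:33902801-34399200, 26 of 54 islands were control-enriched (48.1%, 34.3 to 62.2). Its 1290 peak-library and 640 control-library reads gave a fold of 1.01 (0.916 to 1.11). In windows of 1 Mb, the one from 34 Mb of chromosome 17 held the most control-enriched islands, 25 of 67. Of 16 class II pathway genes listed after the results were known, the 9 H2 genes included, 12 had a control-enriched island within 10 kb, against 19.4% of all RefSeq genes with an island. Of the 7 that are not H2 genes, 3 had one. Rfxank, a subunit of the RFX complex that binds class II promoters, had 2 of 2, and Rfx5 of the same complex had 1 of 1, with 33 against 17 reads. Ifi30, a lysosomal thiol reductase gene, had 1 of 5. Rfxap of the RFX complex and Ciita, the class II transactivator gene, had 0 of 1 each. The protease gene Ctss had 0 of 2 and the invariant chain gene Cd74 had 0 of 4.

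The class I pathway genes inside the same stretch also had such islands. The immunoproteasome gene Psmb9 had 2 of 2 and Psmb8 had 2 of 4, and Tap1, a peptide transporter gene, had 3 of 5. Its partner Tap2 had 1 of 3, the loading factor gene Tapbp had 1 of 4 and the class I gene H2-K1 had 1 of 2. Psmb8, Psmb9, Tap1 and Tap2 all lie within 10 kb of the same run of 3 control-enriched islands, so their counts overlap. Of 13 class I pathway genes, also listed after the results were known, 9 had a control-enriched island, and 8 of their 26 islands were control-enriched (30.8%, 14.3 to 51.8). Psme1, Psme2 and Nlrc5, the class I transactivator gene, had none among 3 each. Psme1 and Psme2 are neighbours, with 70 against 28 reads near each.

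The Gimap cluster on chromosome 6 was similar. Of 19 islands within 10 kb of its 8 genes, 9 were control-enriched (47.4%, 24.4 to 71.1), with 501 peak-library and 265 control-library reads over all 19 and a fold of 0.945 (0.813 to 1.10). Gimap7 had 5 of 7, with 113 against 77 reads in the 5. Gimap6 had 3 of 4, and Gimap4 had 3 of 6. The starts of Gimap8, Gimap4, Gimap7, Gimap1, Gimap5 and Gimap3 lay under islands that were not control-enriched, and the starts of Gimap9 and Gimap6 under control-enriched ones. The Gimap6 start island held 24 against 17 reads.

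Several other families also had a share above the 10.3% of islands near any RefSeq gene. It was 15 of 63 islands (23.8%, 14.0 to 36.2) for RNA-binding motif genes and 21 of 118 (17.8%, 11.4 to 25.9) for splicing factor genes. Islands over Hnrnpl and Srsf2, both splicing regulators, held 71 against 50 and 49 against 36 peak-library and control-library reads. Small nuclear and nucleolar RNA genes had 29 of 140 (20.7%, 14.3 to 28.4), and tRNA genes had 31 of 197 (15.7%, 10.9 to 21.6). Mitochondrial ribosomal protein genes had 21 of 112 (18.8%, 12.0 to 27.2), and Mrps14 had an island with 26 against 23 reads. Solute carrier genes had 54 of 354 (15.3%, 11.7 to 19.4). Zinc finger genes had 67 of 488 (13.7%, 10.8 to 17.1). Proteasome genes were at 16.2% (8.67 to 26.6) and cytosolic ribosomal protein genes at 15.9% (10.1 to 23.3). Small GTPase genes were at 14.7% (10.1 to 20.5) and oxidative phosphorylation genes at 13.5% (8.31 to 20.2). The intervals of the proteasome, cytosolic ribosomal protein, small GTPase and oxidative phosphorylation genes include the 10.3%. Islands over promoter windows were control-enriched in 14.4% of cases, and every interval in this paragraph includes that value. Whether promoters account for these family shares was not tested.

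For the smaller families below, too, the interval reached down to about the share of all genes. Interferon regulatory factor genes had 5 of 17 (29.4%, 10.3 to 56.0), and NF-kB genes had 8 of 37 (21.6%, 9.83 to 38.2). Both islands near Irf3 were control-enriched, as was the single island near Irf8. The Irf3 island with more control-library reads (50 against 28) lay 9848 bp from that gene and 3422 bp from Bcl2l12. It is also counted in the BCL2 family. Islands at the NF-kB subunit gene Relb held 45 against 26 reads, and at the inhibitor genes Nfkbid and Nfkbib 30 against 21 and 21 against 18. Replication-dependent histone genes had 9 of 46 (19.6%, 9.36 to 33.9), and BCL2 family genes had 11 of 58 (interval 9.87% to 31.4%).

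The share was lower in some families, though the upper ends of these intervals lay above the 10.3% of all genes. Interleukins and their receptors had 7 of 114 (6.14%, 2.50 to 12.2) and translation factor genes 6 of 110 (5.45%, 2.03 to 11.5). Runx genes had 0 of 23 islands and immunoglobulin and T cell receptor segments 0 of 25, with upper bounds of 14.8% and 13.7%. Olfactory receptor genes had 2 of 34. TCF and Wnt genes, with 4 of 48 (8.33%), were close to the share of all genes, and the 4 included islands near Tle6, Wnt10b and Fzd5.

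**Figure D4:**
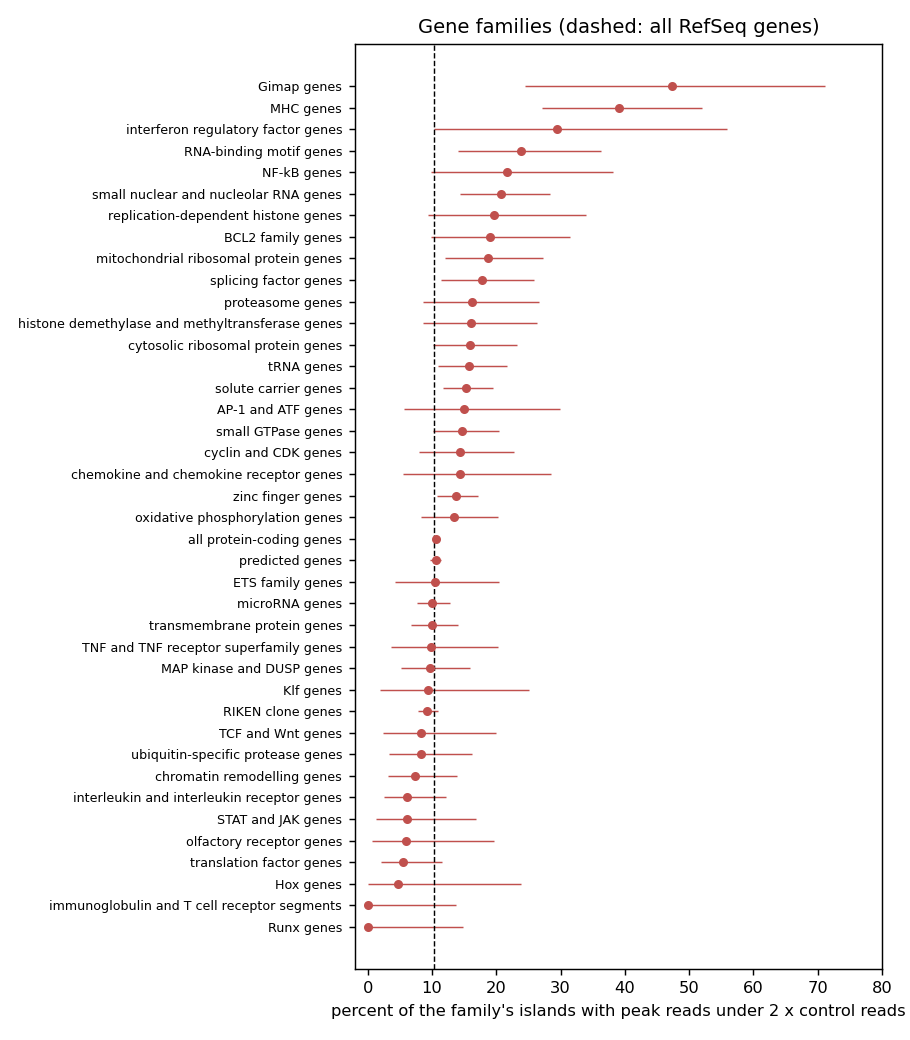
Percent of the islands within 10 kb of each gene family that are control-enriched (points) with exact 95% intervals for counting error, for families with at least 15 islands; the dashed line is the 10.3% of islands near any RefSeq gene. Gimap genes (47.4%) and MHC genes (39.1%) lie farthest to the right, with intervals above the line, and Runx genes and receptor segments lie at 0.

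Over all genes, 3508 of the 18056 RefSeq genes with an island within 10 kb had a control-enriched one, and 438 had 2 or more. Protein-coding genes made up 2513 of the 3508 and long noncoding RNA genes 566. For 1124 genes every island within 10 kb was control-enriched. Genes with a single island are included in that number, and neighbouring genes can share an island. Mbnl1, a regulator of alternative splicing, had 5 control-enriched islands of 24. Those 5 held 163 peak-library against 92 control-library reads. Wdr46 had 4 of 4 (84 against 56 reads), Brd2 had 3 of 3 (162 against 102), and Fyb, a T cell adaptor gene, had 4 of 6 (73 against 42). Long genes such as Mbnl1 and Akap13, an anchoring protein gene with 4 of 21, collected many islands of both kinds.

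Control-enriched islands lay next to one another more often than the other islands lay next to them. The nearest other island was control-enriched for 14.0% (12.5 to 15.6) of them, against 9.93% (9.49 to 10.4) of the other islands. Within 10 kb the values were 17.1% (14.9 to 19.4), against 10.2% (9.58 to 10.8). Runs of at least 3 adjacent control-enriched islands numbered 32, of which 26 had 3 islands, 5 had 4 and 1 had 5. How many runs the 10.1% share of all islands would give in random order was not worked out, so the number is only a description. The run of 5, chr17:34079401-34128800, reached from H2-Oa to Brd2 and H2-DMa, with 185 against 119 reads. A run of 3 at Cdk12, a kinase of RNA polymerase II, and Med1, a Mediator subunit, held 176 against 119 reads, and one at Ccnd3, the cyclin D3 gene, held 111 against 74. The Gimap cluster had 2 runs, of 4 islands with 89 against 60 reads and of 3 with 62 against 46.

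The chromosomes ranged from 7.13% (5.40 to 9.21) of islands control-enriched on chromosome 12 to 13.1% (10.9 to 15.4) on chromosome 3, and 10.7% (7.15 to 15.1) on chromosome X. Chromosome 17, which carries the MHC, had 12.5% (10.5 to 14.6), and chromosome 11 had 11.8% (10.4 to 13.4). Chromosome Y had 3 islands, of which 2 were control-enriched. Across the 20 chromosomes without Y, the share went with the density of coding genes at a Spearman correlation of 0.39 and a Pearson correlation of 0.49, a description of chromosomes that share both libraries.

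**Figure D5:**
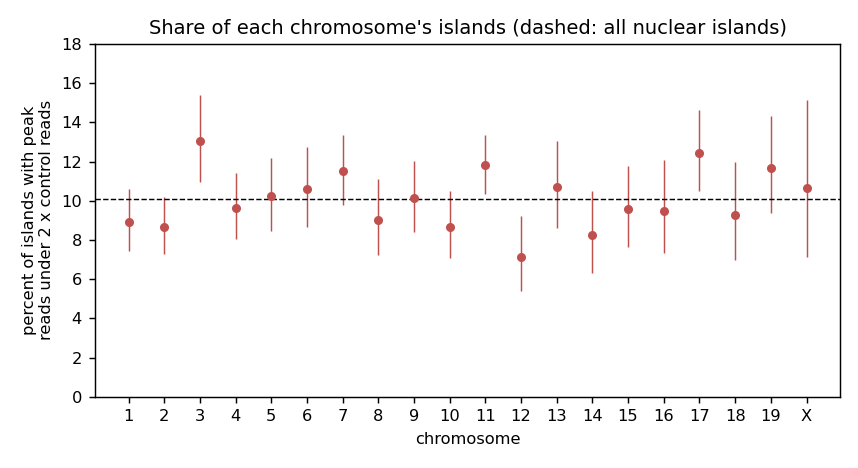
Percent of each chromosome's nuclear islands that are control-enriched (points) with exact 95% intervals for counting error; the dashed line is the 10.1% of all nuclear islands, and chromosome Y with its 3 islands is left out. Most intervals include the line, and chromosome 3 (13.1%) is highest and chromosome 12 (7.13%) lowest.

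The genes that define LTi cells were almost free of such islands. All 16 genes of an LTi and ILC3 list had islands within 10 kb, and 2 of their 97 islands were control-enriched (2.06%, 0.251 to 7.25), both near Cxcr5, the chemokine receptor gene. The upper end of 7.25% lies below the share near any RefSeq gene, but the interval treats the 97 islands as separate. They lie near only 16 genes, with 16 islands near Il1r1 and 15 near Rora, so the bound is not a test. The pooled fold of those 97 islands was 2.19 (1.99 to 2.41), against 1.62 (1.61 to 1.63) over all 19513 islands. The 9 islands near Tcf7, the deleted gene, included no control-enriched one, with an upper bound of 33.6%. That bound lies above the share near any RefSeq gene, so the Tcf7 islands cannot be told from it. They held 143 peak-library against 31 control-library reads. The columns name no sample, so these reads do not check the genotypes.

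Marker lists of other cells had too few islands to be told from the 10.3% near all genes. The B cell list had 3 control-enriched islands of 20 (interval 3.21% to 37.9%), with 323 against 90 reads over all 20. The T cell list had 3 of 11 (27.3%, 6.02 to 61.0), near Cd3e and Lck, with 251 against 95 reads, and no island lay near Cd8a or Bcl11b. The epithelial list had 0 of 2 and the myeloid list 0 of 3, with upper bounds of 84.2% and 70.8%, and Epcam, Vil1, Csf1r, Lyz2 and Itgam had no island. Class II genes are also active in B cells and myeloid cells. The part that other cells take in the class II islands was not tested, and the tissues of origin cannot be told apart from the genotypes.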

How the data were processed

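The submitters' processing notes name Bowtie2 2.4.2, SICER 2.0 and the mm10 build, and settings of these tools were not given in the sources used here. For every island the authors deposited unscaled counts of reads in 2 libraries, which the file headers call peak and control. They also deposited a fold (a ratio) and a p-value with its FDR for each island, and these values were only described. Positions in the table count from 0, so 1 was added.

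Control-enriched islands were found from the counts with a factor of 2 and a ceiling of 200 peak-library reads. Genes came from a RefSeq table of GRCm38.p6 (49943 genes, 21887 protein-coding, starts and ends without exons), and promoter windows from RefSeq (32851 windows of 27025 genes, without chromosome 18). Of 2455 coding genes within 10 kb of a control-enriched island, 2057 (83.8%) had a promoter sequence. Pooled folds have exact conditional binomial 95% intervals, and shares have Clopper-Pearson 95% intervals. Comparisons at equal reads or width weight the other islands to the counts of the control-enriched ones. The factor of 2 is close to the scaling factor of 1.997 that the authors' deposited folds imply. Depth of the whole libraries is unknown. With 1 library per group no test was made. The islands and gene lists were chosen with earlier results of these data known. Islands were named by lowest fold with at least 20 control-library reads (10), most control-library reads (5), width (3), the threshold (3 on each side) and the interval's upper bound (10). Genes were named as those within 10 kb of these islands, the 10 genes with the most such islands, up to 3 per family, and Tcf7. The pathway genes, the MHC and Gimap clusters, the listed runs and the islands named beyond these rules were chosen after their values were seen. The interval code was checked on counts simulated from the same binomial model that the intervals assume. That check says nothing about spread beyond counting error. Python 3.11.15, numpy 2.4.6, pandas 2.3.3, scipy 1.17.1 and matplotlib 3.10.9 were used.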

Additional observations from a re-analysis of the deposited data

How the results depend on the processing

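The scaling between the libraries decided how many islands counted as control-enriched. There were 1980 at a factor of 2, 6307 when the totals of all nuclear islands were equalised (factor 2.80), 7998 when those of islands under 200 peak-library reads were (factor 3.24), 26 without scaling and 24 where the interval had to lie below 1. The authors' deposited folds imply a factor of 1.997, and a fold below 1 in them gave the same 1980. That had to follow, because those folds divide the same counts at nearly the same factor. Ceilings of 100 and 50 reads or none gave 1967, 1887 and 1994. With equal totals under 200 reads the pooled fold was 0.686, computed at that factor, and the shares of control-enriched islands were 65.6% for MHC genes, 94.7% for Gimap genes, 69.6% for histone genes, 55.9% for splicing factor genes and 41.9% for all RefSeq genes.

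The share with a RefSeq gene nearby was 92.9% at 5 kb, 99.5% at 50 kb, 85.9% for overlap, 89.7% for coding genes and 92.3% for unscaled reads. The share near a coding gene start or end was 53.2% at 500 bp, 60.1% at 2 kb, 50.7% by promoter windows, 63.6% with at least 10 control-library reads, 29.2% with the interval below 1 and 26.9% for unscaled reads. The excess of that share over the other islands, 15.4 percentage points, was 4.12 at equal total reads and 13.0 at equal peak-library reads. The width difference of 200 bp was 0 at equal peak-library reads, reversed to -200 at equal total reads and to -300 with the interval below 1, and was 600 with at least 10 control-library reads. On chromosome X the share was 0 with the interval below 1 (upper bound 1.45%) and 0.791% for unscaled reads. The nearest island within 10 kb was control-enriched in 17.1%. Counting the ceilings and the deposited folds, 22 alternative values stayed within the limit set for their result, 28 moved beyond it and 2 reversed. The limit was 1.5 times for numbers of islands and the counting interval for shares and pooled folds. Promoter composition, the excess share and width had limits of their own. The cause of these shifts was not tested.

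No paired analysis was possible because each group has 1 library and the columns carry no sample, and no replicate was left out. Low counts limit single islands: 748 had 5 to 9 control-library reads.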
